A study of Mus musculus with 4 samples.

Results

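The 9 genes described here encode the enzymes that glycolysis and gluconeogenesis share, together with the lactate dehydrogenases. They are Gpi1, Aldoa, Tpi1, Gapdh, Pgk1, Pgam1, Eno1, Ldha and Ldhb, taken from a table of 22079 gene identifiers by their Ensembl identifiers. They were chosen by function, as the reversible glycolytic enzymes and the lactate dehydrogenases, with earlier results of these data known. RNA from cultured mouse primary hepatocytes, the liver cells that make glucose and store glycogen, was sequenced in 2 libraries from Prom1-/- mice (KO 1 and KO 2) and 2 libraries from wild-type mice (WT 1 and WT 2). All animals were C57BL/6 males aged 8 weeks. In both genotypes the isolated cells attached for 4 hours in medium 199 with 10% fetal bovine serum, 23 mM HEPES and 10 nM dexamethasone, a synthetic glucocorticoid, and were then held overnight without serum. The comparison addresses how loss of Prom1, a cholesterol-binding membrane glycoprotein, changes the hepatocyte transcriptome in serum-free culture. The series calls the 2 libraries of a genotype biological replicates; how the Prom1 allele was made is not given in the sources used here.

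Glycolysis splits glucose into pyruvate in the cytosol. The first phosphorylation of glucose, phosphofructokinase and pyruvate kinase run in the breakdown direction only, while the steps between them are reversible and are used by liver for glucose synthesis as well. Lactate dehydrogenase, a tetramer of A and B subunits encoded by Ldha and Ldhb, converts pyruvate and lactate into each other, and liver is rich in the A subunit. Many of these genes are textbook targets of the hypoxia-inducible factors, transcription factors that bind the core letters ACGTG or GCGTG in DNA.

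Levels are in FPKM, fragments scaled to transcript length and library depth, so they can be compared between genes. Prom1 was read first as a check of the labels. The table gave 0 FPKM for KO 1 and 0.0458 FPKM for KO 2, against 0.571 and 1.22 FPKM in WT 1 and WT 2. The libraries held an estimated 15300000 to 17600000 fragments and 10327 to 10424 genes at 1 FPKM or more. Of the 8 hepatocyte markers listed, all were detected in every library apart from Alb, which was listed at 0 in WT 2 and at 25551 FPKM or more elsewhere; a 0 of this kind can be a failed estimate. The hepatocyte markers did not share a direction. Hnf4a, a hepatocyte transcription factor, had 64.9 and 59.5 FPKM in KO, against 90.4 and 95.8 FPKM in WT. Tat was also lower, at 62.5 and 69.8 FPKM in KO, against 82.6 and 80.8 FPKM in WT. Apob was higher, at 566 and 623 FPKM in KO, against 518 and 501 FPKM in WT. The libraries of the genotypes overlapped for Alb, Apoa1, Cps1, Fgb and Ahsg.

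Of the 9 genes, 8 had lower values in both KO libraries than in either WT library, and Ldhb, at trace level, had higher values in both. The 8 lower genes stood in KO at between 64.5% (Gpi1) and 80.3% (Gapdh) of their WT means. The median difference over the 9 genes was -0.47 on the log2(FPKM + 1) scale, KO minus WT, against 0.00150 over the 15152 genes above 0 in at least 1 library. Among those 15152 genes, 17.2% had both KO libraries below both WT libraries and 17.7% had both above. Because the members were chosen with earlier results of these data known, the shares in this paragraph are description and not a test. Of the members 0 were called: by limma, with Benjamini-Hochberg adjustment, 0 of 10407 genes tested had an adjusted p under 0.05, that is 0%, and the lowest adjusted p among the members was 0.518 (Gpi1). At an unadjusted limma p under 0.05, 7 of the 9 genes were lower in KO, where 4.19% of genes tested were lower and 3.1% higher; this count was 3 without WT 2 and 6 or 7 without any other single library, and it was 8 in 4 other settings, where Gapdh was added. The smallest two-sided p that an exact permutation of 2 libraries against 2 can give is 0.333.

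The genes lie on 5 chromosomes. Gpi1, Aldoa and Ldha are on chromosome 7, Tpi1, Gapdh and Ldhb on chromosome 6, Eno1 on chromosome 4, Pgam1 on chromosome 19 and Pgk1 on the X chromosome. Promoter sequence is shown because the 8 lower genes shared a direction and because the core of the hypoxia-inducible factor motif can be read in it. RefSeq promoter windows (GRCm38.p6, the build named mm10 in the submitters' notes), from 250 bases before to 50 bases after a transcript start, were found for all 9 genes. ACGTG or GCGTG on either strand was present in at least 1 window of 7 of the 9 genes, against 46.7% of 27025 genes with a window. ACGTG alone was present for 5 of the 9 genes (Aldoa, Gapdh, Pgk1, Pgam1 and Ldha), against 21.8% of genes. GGGCGG, the box bound by Sp1, was present for 7 of the 9 genes, against 38.2% of genes, and was missing from the windows of Gapdh and Ldhb. The stretches below run 5′ to 3′ on the gene's strand, upstream of the start, with each ACGTG or GCGTG, read on either strand, in capitals.
Ldha, chr7:46845644-46845789, plus strand: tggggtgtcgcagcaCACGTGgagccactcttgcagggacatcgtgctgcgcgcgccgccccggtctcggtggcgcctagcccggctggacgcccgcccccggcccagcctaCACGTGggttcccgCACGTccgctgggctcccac
Pgk1, chrX:106186935-106186988, plus strand: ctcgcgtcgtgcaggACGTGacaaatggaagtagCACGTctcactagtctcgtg
Pgam1, chr19:41911681-41911802, plus strand: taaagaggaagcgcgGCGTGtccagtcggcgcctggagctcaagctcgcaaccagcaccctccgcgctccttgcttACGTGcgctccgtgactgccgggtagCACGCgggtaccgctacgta
Aldoa, chr7:126799361-126799395, minus strand: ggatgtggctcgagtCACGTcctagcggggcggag
Gapdh, chr6:125165798-125165842, minus strand: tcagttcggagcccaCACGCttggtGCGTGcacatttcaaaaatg
Eno1, chr4:150237096-150237154, plus strand: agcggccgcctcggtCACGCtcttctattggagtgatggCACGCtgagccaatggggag
Ldhb, chr6:142508064-142508098, minus strand: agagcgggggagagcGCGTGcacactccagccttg
The Ldha stretch held 5 cores, 4 of them as pairs that overlap in the palindrome CACGTG, which was present in 7.15% of all windows. The Pgk1 stretch held 2 cores, both ACGTG, and the Pgam1 stretch held 3. Aldoa had 1 ACGTG core upstream, while the cores of Eno1 and the upstream cores of Gapdh were of the form GCGTG. Ldhb, the gene with the opposite direction, had 1 GCGTG. The windows of Gpi1, which had the lowest KO level relative to WT, and of Tpi1 held neither core. A match of this length is a description of the letters and was not tested for binding.

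**Figure D1:**
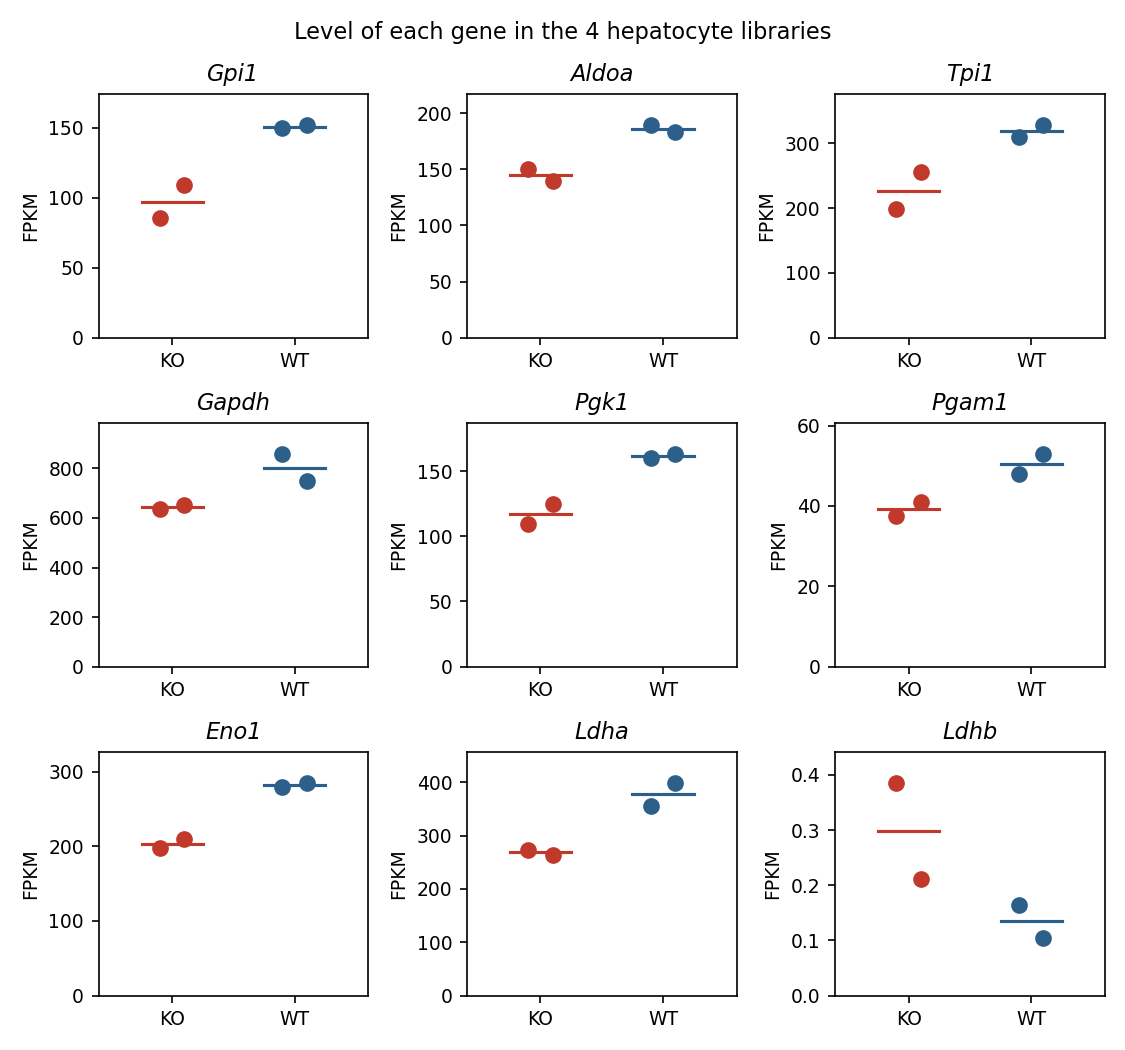
Level of each of the 9 genes, in FPKM on a linear axis from 0, in the KO (left, red) and WT (right, blue) libraries; points are libraries and bars are means of 2. In 8 panels both KO points lie below both WT points, and in the Ldhb panel, with an axis under 0.5 FPKM, both lie above.

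The upper reversible steps convert glucose 6-phosphate to a pair of three-carbon sugars. Gpi1 (ENSMUSG00000036427, chromosome 7, 34201330 to 34230336, minus strand, mm10) encodes glucose-6-phosphate isomerase. Its level was 85.6 FPKM in KO 1 and 109 FPKM in KO 2, against 150 FPKM in WT 1 and 152 FPKM in WT 2. The KO libraries were well apart from each other here and yet both below WT, with a mean of 97.3 ± 16.5 FPKM in KO and 151 ± 1.42 FPKM in WT (SD, n = 2). The log2 difference was -0.64 (SE 0.14; limma unadjusted p = 0.00364, adjusted p = 0.518).

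Aldoa (ENSMUSG00000030695, chromosome 7, 126795234 to 126800751, minus strand) encodes the ubiquitous aldolase A, which splits fructose 1,6-bisphosphate. It stood at 151 and 140 FPKM in KO 1 and KO 2, against 189 and 183 FPKM in WT 1 and WT 2. Here KO 2 was the lower of the KO libraries, unlike for Gpi1. The means were 145 ± 7.74 FPKM in KO and 186 ± 4.28 FPKM in WT (SD, n = 2), a log2 difference of -0.36 (SE 0.10; limma adjusted p = 0.563). A second identifier that carries the name Aldoa, for a neighbouring stretch, reached at most 0.163 FPKM in any library.

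Tpi1 (ENSMUSG00000023456, chromosome 6, 124810586 to 124814296, minus strand) encodes triosephosphate isomerase, which interconverts the products of aldolase. Its level was 198 FPKM in KO 1 and 255 FPKM in KO 2, against 310 FPKM in WT 1 and 328 FPKM in WT 2. The libraries did not overlap, but KO 2 lay closer to WT 1 than to KO 1. The log2 difference was -0.50 (SE 0.15; limma adjusted p = 0.584) and was -0.32 without KO 1.

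The lower reversible steps turn glyceraldehyde 3-phosphate into phosphoenolpyruvate, with a gain of ATP. Gapdh (ENSMUSG00000057666, chromosome 6, 125161715 to 125166467, minus strand), the glyceraldehyde-3-phosphate dehydrogenase gene often used as a loading control, was the most abundant of the 9. It stood at 635 and 654 FPKM in KO 1 and KO 2, against 857 and 748 FPKM in WT 1 and WT 2. The KO libraries were close together and the WT libraries were apart by more than the gap of 94.0 FPKM between the genotypes. The log2 difference was -0.31 (SE 0.13; limma unadjusted p = 0.0576, adjusted p = 0.687), with a 95% interval from -0.64 to 0.01 that includes no difference. The unadjusted limma p of Gapdh was 0.028 with the replicate block, 0.0281 with a common total, 0.0431 with robust moderation and 0.0486 with no trend.

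Pgk1 (ENSMUSG00000062070, X chromosome, 106187100 to 106203699, plus strand) encodes phosphoglycerate kinase, the ATP-yielding step after Gapdh. It stood at 109 and 124 FPKM in KO 1 and KO 2, against 160 and 163 FPKM in WT 1 and WT 2, so that the gap between the genotypes exceeded the spread within each. Its log2 difference was -0.47 (SE 0.11; limma adjusted p = 0.525). Pgam1 (ENSMUSG00000011752, chromosome 19, 41911923 to 41918660, plus strand), the phosphoglycerate mutase gene, stood at 37.5 and 40.9 FPKM in KO 1 and KO 2, against 48.0 and 52.8 FPKM in WT 1 and WT 2. The gap of 7.12 FPKM was larger than the distance between the libraries of either genotype, and the log2 difference was -0.36 (SE 0.11; limma adjusted p = 0.586).

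Eno1 (ENSMUSG00000063524, chromosome 4, 150236721 to 150248879, plus strand) encodes enolase 1, which makes phosphoenolpyruvate. It stood at 197 and 210 FPKM in KO 1 and KO 2, against 279 and 284 FPKM in WT 1 and WT 2. The means were 204 ± 9.01 FPKM in KO and 282 ± 3.39 FPKM in WT (SD, n = 2), and the gap between the genotypes was 69.4 FPKM. Its log2 difference was -0.47 (SE 0.10; limma unadjusted p = 0.00418, adjusted p = 0.519). Of the 9 genes, Eno1 followed the group's median profile over the libraries most closely, with a root mean square distance of 0.0317 on the log2 scale.

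The lactate dehydrogenase genes differed in opposite directions, at very unequal levels. Ldha (ENSMUSG00000063229, chromosome 7, 46841475 to 46855627, plus strand) stood at 273 and 263 FPKM in KO 1 and KO 2, against 356 and 398 FPKM in WT 1 and WT 2. The KO libraries were nearly level and both below WT, with a log2 difference of -0.49 (SE 0.11; limma unadjusted p = 0.00554, adjusted p = 0.525). Ldhb (ENSMUSG00000030246, chromosome 6, 142490249 to 142507957, minus strand) stood at 0.385 and 0.211 FPKM in KO 1 and KO 2, against 0.164 and 0.105 FPKM in WT 1 and WT 2. It lay under the filter of a mean of 1 FPKM and was read from the fit to all genes above 0. With the estimated depth, and a fragment length of 200 bases, these levels rest on about 6.97, 3.57, 3.18 and 1.86 fragments, so the order of the libraries is at the limit of counting. Its log2 difference was 0.19 (SE 0.09; limma adjusted p = 0.776), which was 0.74 with a pseudocount of 0.1, 0.05 with a pseudocount of 5, 0.10 without KO 1 and 0.29 without KO 2. The level of Ldha was 710 and 1246 times that of Ldhb in KO 1 and KO 2 and 2174 and 3792 times in WT 1 and WT 2. On the log2(FPKM + 1) scale the ratio was lower in KO by a difference of -0.68, with an exact two-sided permutation p of 0.333, the smallest possible, and the difference was -1.23 with a pseudocount of 0.1.

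The order of the levels was the same in both genotypes: Gapdh, Ldha, Tpi1, Eno1, Aldoa, Pgk1, Gpi1, Pgam1 and Ldhb. Neighbours in this order did not overlap over the libraries of a genotype, with the exception of Tpi1 and Eno1 in KO. Summed over the 9 genes, the level was 1686 and 1796 FPKM in KO 1 and KO 2, against 2350 and 2308 FPKM in WT 1 and WT 2. That sum was 0.338% and 0.328% of all FPKM in KO 1 and KO 2, against 0.451% and 0.444% in WT 1 and WT 2. The WT 2 total lacks Alb, which was listed at 0 there. With Alb left out of every total, the shares were 0.357% and 0.349% in KO 1 and KO 2, against 0.476% and 0.444% in WT 1 and WT 2. The genes did not all follow the same order within a genotype. KO 1 was the lower KO library for Gpi1, Tpi1, Gapdh, Pgk1, Pgam1 and Eno1, and KO 2 was lower for Aldoa, Ldha and Ldhb. WT 2 was the higher WT library for Gpi1, Tpi1, Pgk1, Pgam1, Eno1 and Ldha, and WT 1 was higher for Aldoa, Gapdh and Ldhb. The distance between the KO libraries was largest for Tpi1 (-0.36, KO 1 minus KO 2, log2 scale) and Gpi1 (-0.34), and was -0.04 for Gapdh.

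**Figure D2:**
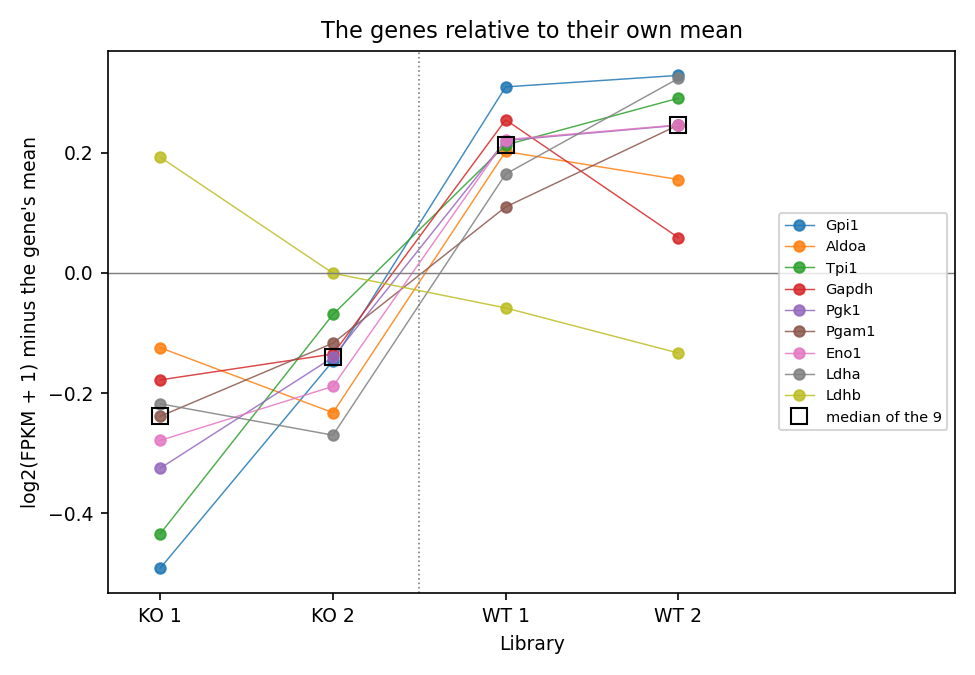
Each gene's log2(FPKM + 1) minus its mean over the 4 libraries (vertical axis), by library with KO on the left; coloured lines join the points of a gene and open squares are the median of the 9. The median is -0.24 and -0.14 in KO 1 and KO 2 and 0.21 and 0.25 in WT 1 and WT 2, with Ldhb running the other way.

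Set against Gapdh within each library, which does not depend on how the libraries were scaled, each of the other 7 lower genes had a smaller difference, as division by a gene that is itself lower in KO brings about. The ratio of Gpi1 to Gapdh was 0.135 and 0.167 in KO 1 and KO 2, against 0.175 and 0.203 in WT 1 and WT 2, a log2 difference of -0.32 with no overlap of libraries. Eno1 over Gapdh was 0.311 and 0.321 in KO, against 0.326 and 0.380 in WT (-0.15). Both had an exact permutation p of 0.333, the smallest possible, or 0.833 with Benjamini-Hochberg adjustment over the 10 ratios computed. The libraries overlapped for the ratios to Gapdh of Aldoa (-0.04), Pgam1 (-0.04), Pgk1 (-0.15), Ldha (-0.17) and Tpi1 (-0.19), with exact permutation p-values of 0.667 or 1. A p of this size with 2 libraries a group does not show that the ratios were alike.

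**Figure D3:**
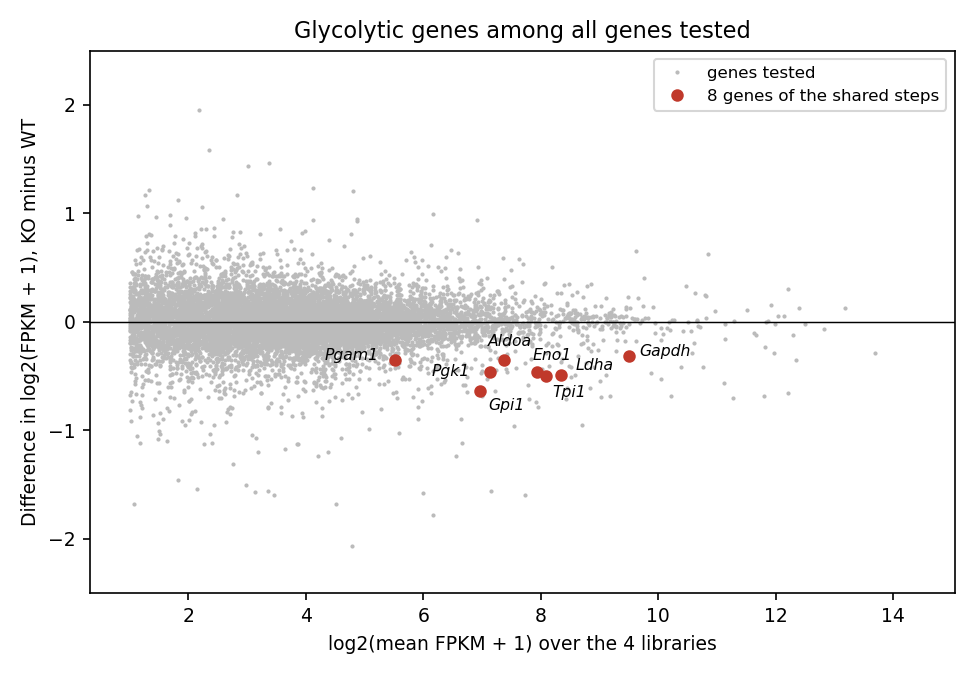
Difference between genotypes (vertical axis, log2(FPKM + 1), KO minus WT) against mean level (horizontal axis, log2) for the 10407 genes tested in grey and the 8 members that passed the filter in red; 2 genes lie outside the vertical axis. The 8 genes lie between -0.64 and -0.31, while 50.3% of all genes tested lie below 0.

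Isozymes of these enzymes and related enzymes were read from a list of 11 genes. Of these, 4 were tested, 4 were listed at 0 in every library (Gapdhs, Pgk2, Pgam2 and Ldhc) and 3 lay under the filter. By limma 0 of the 4 passed over all genes, and their differences ran from -0.41 to 0.17. Eno3, the muscle enolase, stood at 2.68 and 3.31 FPKM in KO, against 3.61 and 5.10 FPKM in WT (-0.41, and -0.21 without WT 2). Ldhd, the D-lactate dehydrogenase, stood at 20.9 and 21.8 FPKM in KO, against 23.6 and 17.1 FPKM in WT, with overlap. Bpgm, which makes 2,3-bisphosphoglycerate, differed by 0.17 (SE 0.15), and by 0.061 without KO 1 and 0.28 without KO 2.

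Of the 16 genes listed for the irreversible steps and their regulation, 11 were tested. By limma 0 passed over all genes; 7 had both KO libraries below WT and 1 had both above, where the shares over all genes tested were 19.8% and 18.3%. Pkm, the pyruvate kinase of most tissues other than liver, stood at 13.4 and 7.25 FPKM in KO 1 and KO 2, against 26.4 and 23.2 FPKM in WT 1 and WT 2. Pklr, the liver form, was higher, at 110 and 123 FPKM in KO, against 69.7 and 80.4 FPKM in WT. The ratio of Pkm to Pklr was thus 0.122 and 0.0589 in KO 1 and KO 2, against 0.378 and 0.289 in WT 1 and WT 2. Pfkl, the liver phosphofructokinase, differed by -1.12 (SE 0.12; limma adjusted p = 0.239). The median difference was -0.18 over all 16 genes and -0.41 over the 11 that passed the filter.

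Lactate, pyruvate and glucose carriers were mixed. Of 14 genes listed, 10 were tested, of which 5 had both KO libraries below WT and 4 had both above. The shares over all genes tested were 19.8% below and 18.3% above. By limma 0 passed over all genes and the median difference was -0.09. Slc16a3, the lactate exporter MCT4, stood at 2.35 and 0.457 FPKM in KO 1 and KO 2, against 6.22 and 4.71 FPKM in WT 1 and WT 2 (-1.54, SE 0.39; limma adjusted p = 0.548), and the difference was -0.94 without KO 2. Bsg, basigin, the membrane partner that brings such carriers to the cell surface, stood at 329 and 399 FPKM in KO, against 525 and 582 FPKM in WT (-0.61, SE 0.14). Mpc2, a subunit of the mitochondrial pyruvate carrier, stood at 55.9 and 65.5 FPKM in KO, against 78.0 and 98.2 FPKM in WT (-0.53, SE 0.15). Slc2a2, the glucose transporter of liver, was higher, at 15.1 and 19.5 FPKM in KO, against 11.3 and 13.7 FPKM in WT (0.43, and 0.26 without KO 2). Slc16a1, the widely expressed carrier MCT1, stood at 33.8 and 32.0 FPKM in KO, against 29.0 and 31.7 FPKM in WT (0.11, SE 0.10).

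The enzymes that gluconeogenesis does not share with glycolysis were also mixed. Of 8 genes listed, 7 were tested, of which 4 had both KO libraries below WT and 1 had both above. The shares over all genes tested were 19.8% below and 18.3% above, and 0 of the 7 passed by limma over all genes. Pck1, the cytosolic phosphoenolpyruvate carboxykinase, stood at 6.38 and 6.94 FPKM in KO 1 and KO 2, against 15.7 and 16.9 FPKM in WT 1 and WT 2. Pck2, the mitochondrial form, stood at 22.2 and 21.5 FPKM in KO, against 13.5 and 8.80 FPKM in WT (0.94, SE 0.19; limma adjusted p = 0.518). The glucose-6-phosphatase gene G6pc averaged 0.879 ± 0.384 FPKM in KO and 2.77 ± 0.812 FPKM in WT (SD, n = 2), with no overlap of libraries. The glucose-6-phosphate transporter gene Slc37a4 differed by -0.83 (SE 0.22), and by -0.51 without WT 2. Of 15 tested genes in side branches that leave the shared steps, 3 had both KO libraries below WT and 4 had both above. These counts are near the shares over all genes tested, 19.8% and 18.3%. The branch genes had a median difference of 0.09. The largest was Phgdh, the enzyme that draws 3-phosphoglycerate into serine synthesis, at 23.3 and 15.5 FPKM in KO, against 12.4 and 8.35 FPKM in WT (0.84, SE 0.24; limma adjusted p = 0.570). The glycerol-phosphate dehydrogenase-like gene Gpd1l differed by -0.44 (-0.22 without WT 2, -0.67 without WT 1). Rpia of the pentose phosphate pathway differed by 0.36 (0.16 without KO 2, 0.57 without KO 1). G6pdx, the entry enzyme of that pathway, differed by -0.32 with overlap (-0.061 without KO 2, -0.59 without KO 1).

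**Figure D4:**
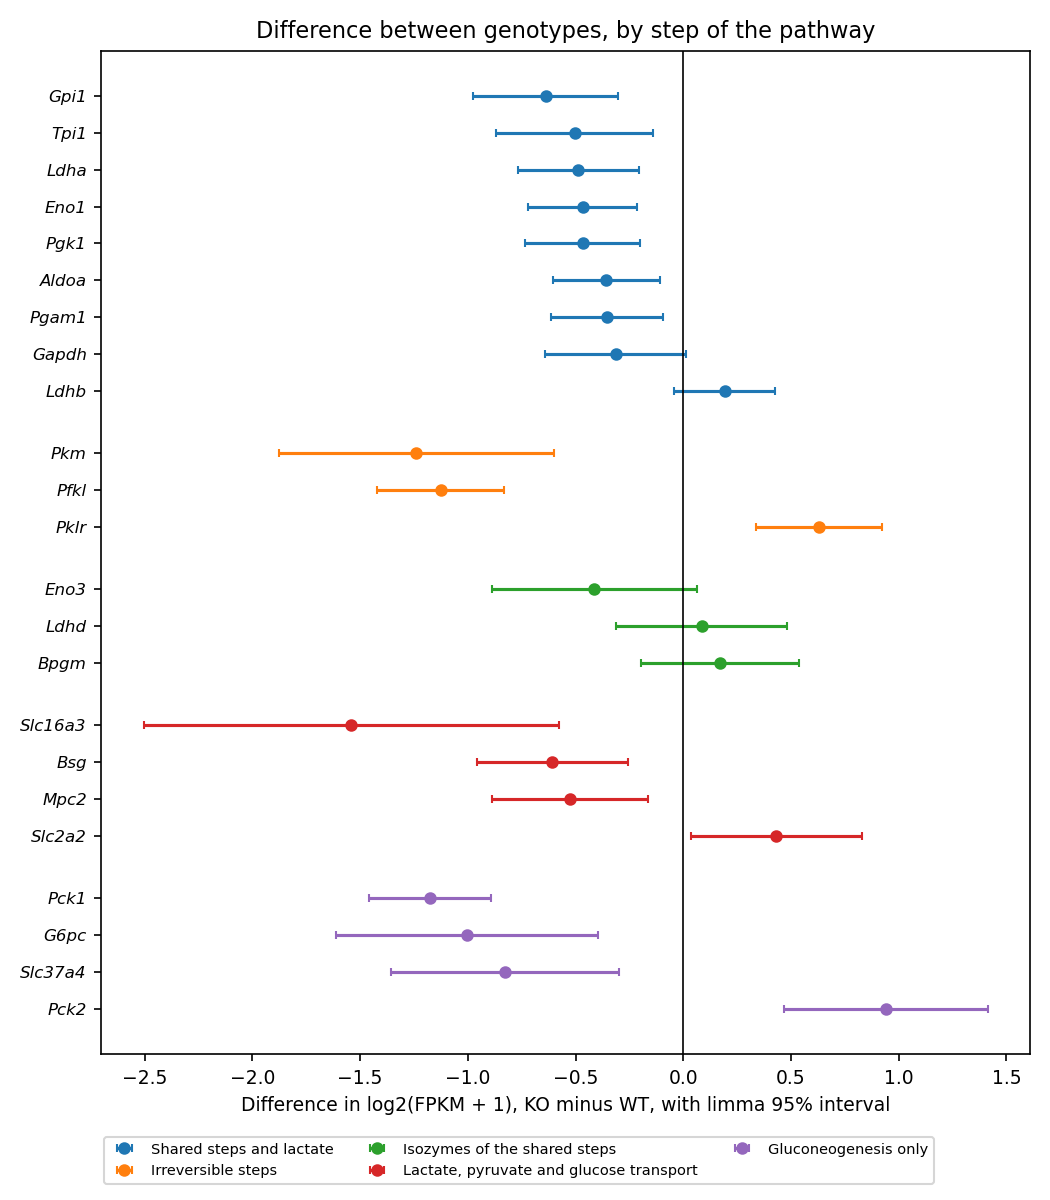
Difference between genotypes in log2(FPKM + 1), KO minus WT (horizontal axis), with its limma 95% interval, for the 9 genes and for 3 or 4 genes of each of 4 other lists, among those with the largest differences. The intervals of 7 of the 9 genes lie below 0, those of Gapdh and Ldhb cross it, and Pklr, Slc2a2 and Pck2 lie above it.

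Of 20 hypoxia target genes listed that act outside glycolysis, 19 were tested and 0 passed by limma over all genes. Both KO libraries were below WT for 11 of the 19 and above WT for 0, and the other 8 overlapped, where the shares over all genes tested were 19.8% below and 18.3% above. The median difference was -0.22 over the list; Adm and Ero1l, both with overlap, stood in KO at 107.5% and 100.2% of their WT means. Bnip3, a mitochondrial protein of the autophagy of mitochondria, differed by -1.58 (SE 0.20; limma adjusted p = 0.311) and Ndufa4l2, a mitochondrial protein related to a respiratory chain subunit, by -1.57 (SE 0.22). Egln3, an oxygen-sensing prolyl hydroxylase that marks the alpha subunits for breakdown, differed by -1.13 and Ankrd37 by -1.12. Ankrd37 was near the floor, at 0.597 and 0.267 FPKM in KO, against 2.09 and 2.08 FPKM in WT. Its difference was -2.11 with a pseudocount of 0.1 and -0.38 with a pseudocount of 5, and that of Egln3 was -1.43 and -0.60. Among 9 tested regulators, 5 had both KO libraries below WT and 2 had both above, and 0 passed. The factor subunit gene Epas1 stood at 12.0 and 9.87 FPKM in KO, against 14.7 and 17.2 FPKM in WT (-0.51, SE 0.14). Arnt, the partner of both alpha subunits, stood at 17.5 and 18.0 FPKM in KO, against 22.1 and 21.8 FPKM in WT (-0.29, SE 0.10). Hif1a was higher, at 23.3 and 31.4 FPKM in KO, against 21.4 FPKM in both WT libraries (0.32, with 0.12 without KO 2 and 0.53 without KO 1). Egln2, another such hydroxylase, differed by -0.25 (SE 0.10).

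Of 5790 named genes that averaged 10 FPKM or more, the 8 closest to the median profile of the 9 genes over the 4 libraries were Zfyve1, Zranb1, Aifm2, Irgm1, Sec24d, Lactb2, Ctps2 and Map1lc3b. Their root mean square distance to it was between 0.0223 and 0.0415 on the log2 scale, against 0.0317 for Eno1 and 0.325 for Ldhb. Zfyve1, the closest, stood at 14.0 and 14.8 FPKM in KO, against 19.4 and 19.9 FPKM in WT. Likeness over 4 libraries carries little information, and it was not tested.

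In bulk RNA, fewer cells of a type and less RNA per cell cannot be told apart. Of 8 sinusoidal endothelial markers, summed levels were 72.0 and 36.0 FPKM in KO 1 and KO 2, against 49.2 and 46.1 FPKM in WT 1 and WT 2; 1 of the 8 had both KO libraries above WT and 0 had both below. Summed stellate cell and fibroblast markers (8 genes) were likewise highest in KO 1 and lowest in KO 2. The median of the 3 tested, centred on the 4 libraries, was 0.20 and -0.40 in KO 1 and KO 2. It was 0.02 and -0.19 in WT 1 and WT 2. Of these 3, 1 had both KO libraries below WT and 0 had both above. The lower marker was Reln, at 2.79 and 2.33 FPKM in KO, against 3.47 and 5.65 FPKM in WT. The sum of 8 Kupffer cell and macrophage markers was 414 and 487 FPKM in KO, against 372 and 367 FPKM in WT; of 7 tested, 4 had both KO libraries above WT and 1 had both below, where the shares over all genes tested were 18.3% and 19.8%. Most of that sum was Cd68, at 393 and 465 FPKM in KO, against 357 and 351 FPKM in WT. The others above WT, Adgre1, Marco and Cd5l, stood in KO at 169%, 211% and 186% of their WT means. C1qa, below WT, stood at 88.7%, and Clec4f and C1qb, with overlap, stood at 108.5% and 95.1%. Of 8 hepatocyte markers tested, 2 had both KO libraries below WT and 1 had both above. Of 6 cholangiocyte markers the sum was 36.9 and 23.2 FPKM in KO, against 35.5 and 32.4 FPKM in WT, of 4 erythroid markers 6.60 and 8.28 FPKM in KO, against 6.37 and 5.70 FPKM in WT, with 2 listed at 0 throughout, and of 4 lymphocyte markers under 1 FPKM in every library. The part of these markers in the differences above was not tested.

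Some values carry an uncertainty from other loci. In all, 174 other annotated genes have a transcript that aligns to that of Gapdh over at least 300 bases at 90% identity or more. Of these, 6 were in the table. The highest of the 6 was Peli2, where a stretch of 1084 bases matched at 90.8% identity. The Peli2 gene as a whole stood at 6.92 and 4.87 FPKM in KO, against 6.02 and 5.05 FPKM in WT. Gm3839, a near-identical copy at 99.1%, reached 0.319 FPKM. Ldha has 13 such matching genes, and Aldoa and Eno1 have 6 each. Pgk1 has 4, Pgam1 has 3, Tpi1 has 2, and Gpi1 and Ldhb have 1 each. The closest match was at 100% identity for Pgk1 and Pgam1 and at 98.0% for Ldhb. How fragments matching several loci were shared is not given in the sources used here. Exons of Gpi1, Aldoa, Tpi1 and Gapdh overlap those of Gm26762, Fam57b, Spsb2 and Iffo1 on the opposite strand, and Gm26762 was not analysed here. The kit marks strand, but the strand setting of the counting is not given in the sources used here.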

How the data were processed

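The authors deposited 1 value per gene and library, read here as FPKM from the values and the tools in the submitters' processing notes (STAR 2.5.0, Cufflinks, Cuffdiff 2.2.1, build mm10, with no role or order); no header states the unit. Libraries were made with a stranded TruSeq mRNA kit, per the labels' protocols. Of 22079 identifiers, 21984 matched GENCODE M21. Depth was estimated from what the smallest values imply for 1 fragment, using 116 to 147 low values per library among 3047 single-transcript genes, assuming fragments of 200 bases. Differences are of log2(FPKM + 1), which understates low genes. Genes averaging 1 FPKM or more (10407) were compared with limma 3.58.1 in R 4.3.3 (trend, genotype as the only term, two-sided, Benjamini-Hochberg over all genes, threshold 0.05); genes below it were read from a fit to 15152 genes above 0. The test was also run on simulated data with planted differences. How many of these it recovered is not given here, so that run lends no weight to the calls. Copies were found with BLAST 2.17.0. The members and lists were chosen with earlier results of these data known. The naming rule takes the 9 members, up to 4 tested genes per list with the largest difference, close copies and the 8 most alike genes. Beyond it, Slc16a1, Adm, Ero1l, Reln, the hepatocyte markers and isozymes at 0 were picked with their values in view. So were the tested Kupffer cell and macrophage markers. The rule also takes 2 genes that are not reported here; they stay in their lists' counts. Alternatives were other pseudocounts, filters, scalings, moderation, a replicate block and each library left out; rescaling without Alb was added after seeing the data.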

Additional observations from a re-analysis of the deposited data

How the results depend on the processing

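The 9 genes kept their sign and their lack of a call over all genes in all 14 alternatives run. The 9 genes also had non-overlapping libraries under each of the 3 rescalings, the only alternatives that could have brought separate libraries to overlap. Their median difference of -0.47 ran from -0.47 to -0.43 under other pseudocounts, filters, scalings and the block, and from -0.48 to -0.37 with a library left out (-0.37 without KO 1, -0.41 without WT 2). With a library left out, the count of genes called by limma ran from 0 to 8 (8 without WT 1, 5 without KO 1) and that of other pathway genes called from 0 to 1 (Pkm without KO 1, Bnip3 without WT 1); the lone library is then assumed to vary like the other genotype. The count at an unadjusted p under 0.05, 759 genes, was 314 without WT 2 and 1231 without KO 2. Among the members and the list genes named here by the rule, the sign changed for 1. Ldhd (-0.14 to 0.31 with a library left out) was -0.14 without WT 2, and the cause was not tested. The signs of the other genes named here were not followed through the alternatives. The replicate numbers of the labels do not state a pairing. Deviations of same-numbered libraries correlated at 0.151, and a fit with the replicate number as a block called 0 genes, with 1054 at an unadjusted p under 0.05, and changed no call over all genes. Depth limits Ldhb most, which rests on a few fragments per library.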
